A study of Mus musculus with 12 samples.

Results

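The genes described are those nuclear genes whose symbols mark them as subunits of the mitochondrial respiratory chain or of ATP synthase: Nduf genes of the A, B, C, S and V series, Sdha to Sdhd, Uqcr genes, Cox4 to Cox8 genes and Atp5 genes. Of the 30740 symbols in the deposited tables, 83 carried such a name, and 82 were kept after a pseudogene symbol, Atp5l-ps1, was left out. By complex, 35 belong to complex I, 4 to complex II, 8 to complex III, 17 to complex IV and 16 to complex V, and 2 (Atp5s and Atp5sl) are named after ATP synthase without being subunits of it. Ndufa4 and its paralogue Ndufa4l2 were counted with complex IV, where the protein is now placed. Cox6a2, Cox8b and Cox8c were not analysed here.

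The samples were RNA-seq libraries of ventral spinal cord cells from CB6F1/J mouse embryos at stage E12.5, sorted for green fluorescent protein (GFP) made under control of Hb9 (Mnx1), a motor neuron gene. GFP-positive cells gave 10 libraries, 5 from controls and 5 from Arhgap35 knockouts, and GFP-negative cells gave 1 of each genotype, with all embryos carrying the reporter and cells pooled from several embryos. Arhgap35 encodes p190, a GTPase-activating protein. The control libraries are labelled wild type, although the protocol counts p190+/- littermates among the controls, and the GFP-negative libraries carry the same motor neuron label as the GFP-positive ones. Nothing in the labels ties the libraries of a group to different litters or animals, and the p-values therefore cover only the spread between these libraries, which may be technical. Values of the GFP-negative pair are given with the control library first and the knockout library after it.

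In the cell, complexes I and II pass electrons from NADH and succinate to ubiquinone, complex III passes them on to cytochrome c, and complex IV hands them to oxygen. Complexes I, III and IV pump protons across the inner mitochondrial membrane, and ATP synthase (complex V) uses the gradient to make ATP. A few subunits are encoded in mitochondrial DNA, while the genes described here lie in the nucleus and are known to be expressed in nearly every cell, with a small number of paralogues that are used in particular tissues or in low oxygen. Neurons rely heavily on this pathway, and neural progenitors are known for a larger part played by glycolysis.

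Estimated counts added up to between 23.7 M and 33.8 M per library. Arhgap35, the targeted gene, ranged over 135 to 202 CPM (counts scaled to a common library size) among the GFP-positive controls and 88.2 to 107 CPM among the knockouts. It stood at 154 and 95.6 CPM in the GFP-negative pair. Grlf1, an alias of Arhgap35 counted separately, ranged over 23.7 to 71.8 CPM among these controls and 0 to 8.33 CPM among the knockouts. Its level in the GFP-negative pair was 32.8 and 6.45 CPM. The 8 motor neuron markers, among them Mnx1 and Chat, were all higher in GFP-positive cells, with a summed level of 1482 to 1939 CPM against 50.4 and 47.6 CPM in the 2 GFP-negative libraries, so the label of the GFP-negative libraries goes against their markers. All 8 markers of dividing cells were lower in GFP-positive cells (summed level of 64.8 to 133 CPM, against 725 and 837 CPM in GFP-negative libraries), as were 7 of 8 neural progenitor markers and 8 of 8 tested erythroid markers. The 4 groups therefore differ in cell makeup along the GFP sort, and in such bulk samples fewer cells of a type and less RNA per cell cannot be told apart.

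Most of the genes were abundant in GFP-positive cells. Levels of different genes are compared as deposited TPM, a unit that corrects for transcript length, and as means over the 10 GFP-positive libraries. The median over all 82 genes was 171 TPM, and 73 of them were above 50 TPM, whereas the 17487 genes tested in these libraries had a median of 15.97 TPM. The medians by complex were 130 TPM for complex I, 173 TPM for complex II, 181 TPM for complex III, 258 TPM for complex IV and 304 TPM for complex V. The highest level of all was that of Atp5b, the catalytic beta subunit of ATP synthase, at 1354 ± 30.6 TPM (SD, n = 10). Its range over libraries was 1306 to 1412 TPM, and the next highest gene, Atp5a1, which encodes the alpha subunit that alternates with beta in the same ring, reached 745 ± 21.6 TPM. In complex IV the highest level was 646 ± 25.0 TPM, for Cox4i1, the largest nuclear-encoded subunit. In complex I it was 318 ± 14.0 TPM, for the membrane-arm subunit gene Ndufb8, in complex III 325 ± 11.7 TPM, for the hinge protein gene Uqcrh, and in complex II 254 ± 10.8 TPM, for the membrane anchor gene Sdhc.

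**Figure D1:**
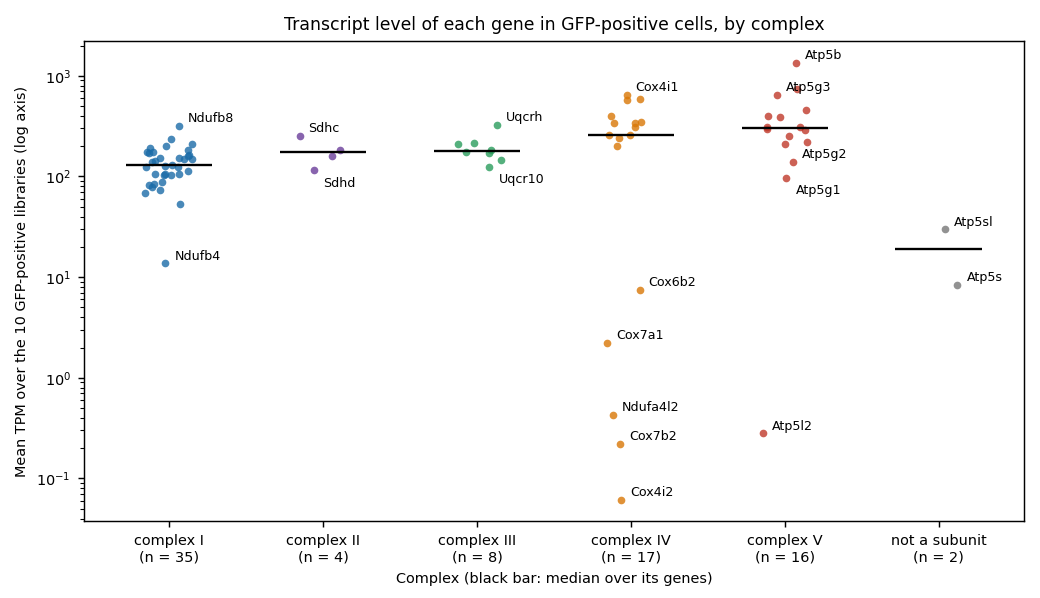
Mean TPM over the 10 GFP-positive libraries (vertical log axis) for each of the 82 genes, grouped by complex along the horizontal axis, with 1 point per gene and a black bar at the median of each complex. Most points lie near the medians of 130 to 304 TPM, and the tissue-restricted paralogues Cox6b2, Cox7a1, Ndufa4l2, Cox7b2 and Cox4i2 lie far below the other complex IV genes.

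The lowest levels belonged to paralogues known from other tissues. Cox6b2, a form known from testis, stood at 7.52 ± 1.15 TPM, and Cox7a1, the heart and skeletal muscle form, at 2.24 ± 0.894 TPM. Ndufa4l2 and Cox4i2, both known to be induced by low oxygen, stood at 0.428 ± 0.191 and 0.0617 ± 0.0654 TPM (SD, n = 10 each). Cox7b2 had 7 estimated counts over all 10 GFP-positive libraries and 0 in the GFP-negative ones, and Atp5l2, annotated as a processed pseudogene that shares 90.4% of its 31-base sequences with other genes (Atp5l first), had 11 and 0. A count of 3, the floor used for detection, corresponds to 0.0898 to 0.128 CPM by library, so these genes were at or near the limit of what this depth can show. Ndufb4, a complex I accessory subunit gene, was low at 13.7 ± 2.51 TPM, but 19.1% of its 31-base sequences also occur in other genes, Ndufb4c first, and its reads are uncertain. In all, 32 of the 82 genes share over 10% of their 31-base sequences with other genes, and 28 overlap another gene, whose reads cannot be separated by strand because the library kit does not keep it.

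Setting knockout beside control within the GFP-positive sort addresses the effect of losing Arhgap35 on these transcripts in sorted motor neurons. None of the 77 tested genes of the family was called higher or lower, and none had an unadjusted p under 0.05 (edgeR's quasi-likelihood test, adjusted p = 0.9999 for each). Of all 17487 genes tested, 0.0343% were called (0.00572% higher and 0.0286% lower), so a count of 0 among 77 is near the background. DESeq2 called 0 as well, with 1 of the 77 at an unadjusted p under 0.05, and limma-voom called 0 with 0 such genes. None of these fits paired control and knockout libraries by number. With replicate number as a block, edgeR also called 0, with 0 such genes. The log2 fold changes ran from -0.06 (Cox6b2) to 0.07 (Atp5j), with a median of 0.00897, against -0.00158 over all genes tested. What the intervals allow is narrow for most of the family: the median half-width of the 95% confidence intervals was 0.103 on the log2 scale, against 0.191 over all genes tested. The widest interval ran from -0.41 to 0.29, for Cox6b2, whose level is low.

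By complex, the medians of the log2 fold changes in knockout cells were 0.00892 for the 35 complex I genes, -0.00140 for the 4 complex II genes, -0.00872 for the 8 complex III genes, 0.0191 for 13 complex IV genes and -0.00681 for 15 complex V genes. The intervals of the single genes lay between -0.10 and 0.09 in complex II and between -0.16 and 0.15 in complex III. Atp5l2, Cox7b2, Cox4i2, Cox7a1 and Ndufa4l2 had counts too low to be tested. For no gene of the 77 did the 2 genotypes separate, that is, every gene's 5 control and 5 knockout libraries overlapped, and 0.486% of all genes tested did separate.

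**Figure D2:**
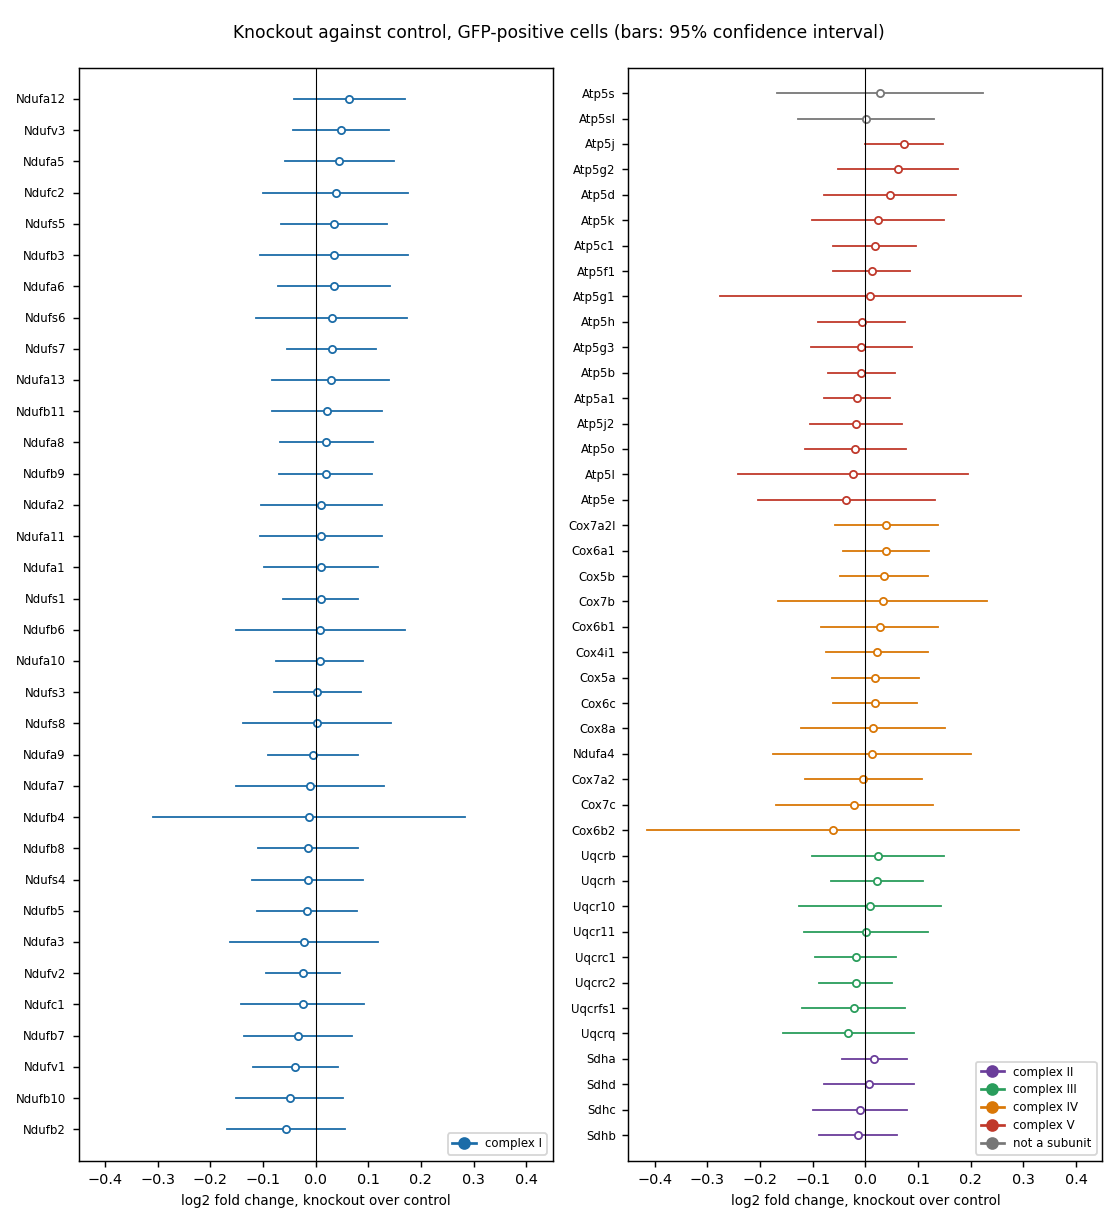
Log2 fold change of knockout over control (horizontal axis) in GFP-positive cells for 76 of the 77 tested genes, complex I on the left and the others on the right, with bars for the 95% confidence interval. All points lie between -0.06 and 0.07, and every bar crosses 0.

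The smallest p among them belonged to Atp5j, which encodes coupling factor 6 in the peripheral stalk of ATP synthase (chromosome 16, 84827866 to 84835625, GRCm38). It stood at 84.9, 80.8, 85.6, 78.6 and 79.3 CPM in control libraries 1 to 5 and at 83.3, 87.9, 84.8, 89.1 and 86.8 CPM in knockout libraries 1 to 5. Control libraries 1 and 3 lay within the range of the knockout libraries, and the other 3 lay below it. The log2 fold change was 0.07 ± 0.03 (SE, 95% interval -0.00159 to 0.15, adjusted p = 0.9999 by edgeR's quasi-likelihood test). Its annotated exons overlap those of Gabpa on the opposite strand, so part of its reads may come from there. The next smallest p-values were those of Ndufa12, Atp5g2, Ndufv3, Ndufb2, Cox6a1, Ndufb10 and Ndufv1. Their log2 fold changes were between -0.06 and 0.06 and their unadjusted p-values between 0.209 and 0.316. Ndufv1, which encodes the NADH-binding core subunit of complex I, had 102 ± 2.82 CPM (control) and 99.2 ± 4.36 CPM (knockout; SD, 5 libraries per genotype). Sdha, which encodes the succinate-binding subunit of complex II and was the steadiest of the 77 genes between libraries, stood at 181 ± 4.10 and 184 ± 3.18 CPM.

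On chromosome 7, 5 of the genes lie within 20 Mb of Arhgap35 (16493719 to 16614993). Atp5sl (9 Mb away, now named Dmac2 and known as a complex I assembly factor) had 19.7 ± 1.43 CPM (control) and 19.8 ± 1.01 CPM (knockout). Cox6b2 (11.74 Mb) stood at 1.67 ± 0.173 and 1.61 ± 0.309 CPM, Ndufa3 (12.87 Mb) at 25.6 ± 2.15 and 25.3 ± 1.58 CPM, and Cox6b1 (14.00 Mb) at 129 ± 9.08 and 132 ± 6.12 CPM (SD, 5 libraries per genotype). Cox7a1 (13.57 Mb) was too low to test. The differences of the 4 tested neighbours were smaller than the SD of either genotype, and the sign of each of the 4 changed under at least 1 other setting or with 1 library left out.

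The sum over all 82 genes took up a share of the libraries that did not differ beyond its spread, at 0.707% ± 0.0184 of the estimated counts for controls and 0.707% ± 0.0175 for knockouts (SD, 5 libraries per genotype). Complex V made up the largest part of it, with 0.311% ± 0.00637 and 0.310% ± 0.00628 of the counts. Single genes had a median coefficient of variation of 4.84% over the 10 GFP-positive libraries, from 2.06% for Sdha to 15.4% for Atp5g1. Much of that variation was shared. Deviations were taken from each gene's mean over the 5 GFP-positive libraries of the same genotype. In control library 4, 8 of 77 genes were above that mean and the median deviation was -0.09 on the log2 scale. In knockout library 2, 66 of 77 were above it and the median deviation was 0.06.

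Control library 4 also had the lowest median deviation in 2 other sets of transcripts. Knockout library 2 was within the range of the other libraries there. Cytosolic ribosomal protein genes, another large set of short and abundant transcripts, had a median deviation of -0.12 in control library 4 and 0.06 in knockout library 2. Mitochondrially encoded subunit genes varied more, with median deviations of -0.40 and 0.30 in those 2 libraries. Their summed level was 13590 ± 3157 CPM for controls and 13010 ± 2621 CPM for knockouts (SD; p = 0.778 by an exact permutation test, two-sided, and 0.778 after adjustment over 2 measures). Library totals were 25.15 ± 2.85 M and 27.6 ± 4.00 M counts (exact permutation p = 0.206, adjusted p = 0.412). The smallest p that 5 against 5 libraries allow is 0.00794, with library numbers ignored. What the libraries share along these deviations was not tested.

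**Figure D3:**
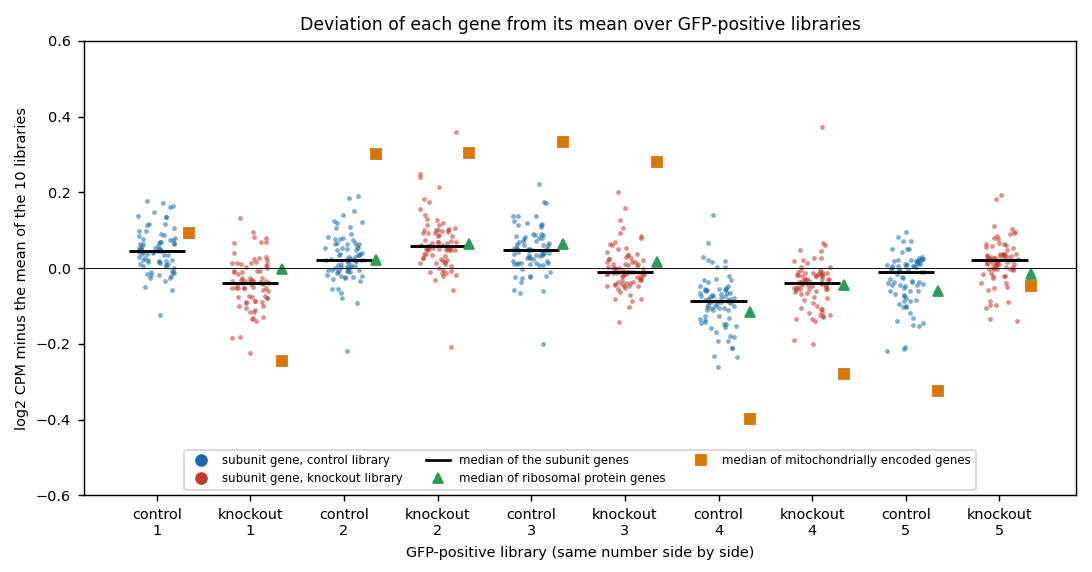
Deviation of log2 CPM (vertical axis) for the 77 tested genes, 1 point per gene, in each library (horizontal axis, control in blue and knockout in red). Each value is taken from the gene's mean over the 5 GFP-positive libraries of the same genotype, although the axis title names the mean of the 10 libraries. Black bars are medians of these genes, green triangles those of ribosomal protein genes and orange squares those of mitochondrially encoded genes. Control library 4 is the lowest for all 3. A difference between the genotypes cannot show here, because each genotype is centred on its own mean.

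No gene in the rest of the pathway was called in knockout cells. This held for the lists of assembly factors, electron carriers and nucleotide exchange, tricarboxylic acid (TCA) cycle, regulators of mitochondrial gene expression, glycolysis and mitochondrially encoded subunits. The mitochondrially encoded list had 11 tested genes and a median of -0.06, with all 11 below 0 and none at an unadjusted p under 0.05. Its log2 fold changes ran from -1.15 (mt-Atp8) to -0.03, and its intervals were wider than those of the nuclear subunits (median half-width 0.415 against 0.103). In the TCA cycle list 1 of 16 genes had an unadjusted p under 0.05, Ogdh, a subunit of 2-oxoglutarate dehydrogenase, at -0.09 (adjusted p = 0.9999 by edgeR's quasi-likelihood test). In the glycolysis list 14 of 17 genes were above 0, with a median of 0.08 and a range of -0.25 to 0.54, and 1 had an unadjusted p under 0.05, the phosphoglycerate kinase gene Pgk1, at 0.14 (adjusted p = 0.9999 by edgeR's quasi-likelihood test). None of these passed the threshold. Some markers of other cells also lay on 1 side of 0 in knockout libraries, none of them called: 7 of 7 tested endothelial markers and 6 of 6 erythroid markers above it, and 8 of 8 interneuron markers below it. The summed endothelial level was 4.71 to 9.71 CPM among controls and 5.84 to 19.2 CPM among knockouts. The part of such cells in these values was not tested.

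The comparison of GFP-positive with GFP-negative cells addresses how these transcripts differ between motor neurons and the remaining sorted cells. Of 80 genes tested, 30 were called higher (37.5%) and 10 lower in GFP-positive cells. Of the 10, 2 (Cox4i2 and Ndufa4l2) passed the filter on low counts only through the GFP-negative libraries, so their direction was fixed by the filter. Among all 19763 genes tested, 30.1% were called higher and 31.8% lower, 61.9% in all, so the share called higher is near the background. With scaling by library size alone the counts were 27 higher and 15 lower. The median log2 fold change was 0.08, against 0.02 over all genes tested. Differences were small: 4 of the 80 genes differed by more than 0.5 on the log2 scale (5%), whereas 49.4% of all genes tested did. In 31 of the 80 genes all 10 GFP-positive libraries lay above both GFP-negative libraries (29.6% of all genes tested), and in 9 they lay below both (31%). Cox4i2 and Ndufa4l2, whose direction the filter fixed, are among the 4 genes and among the 9.

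**Figure D4:**
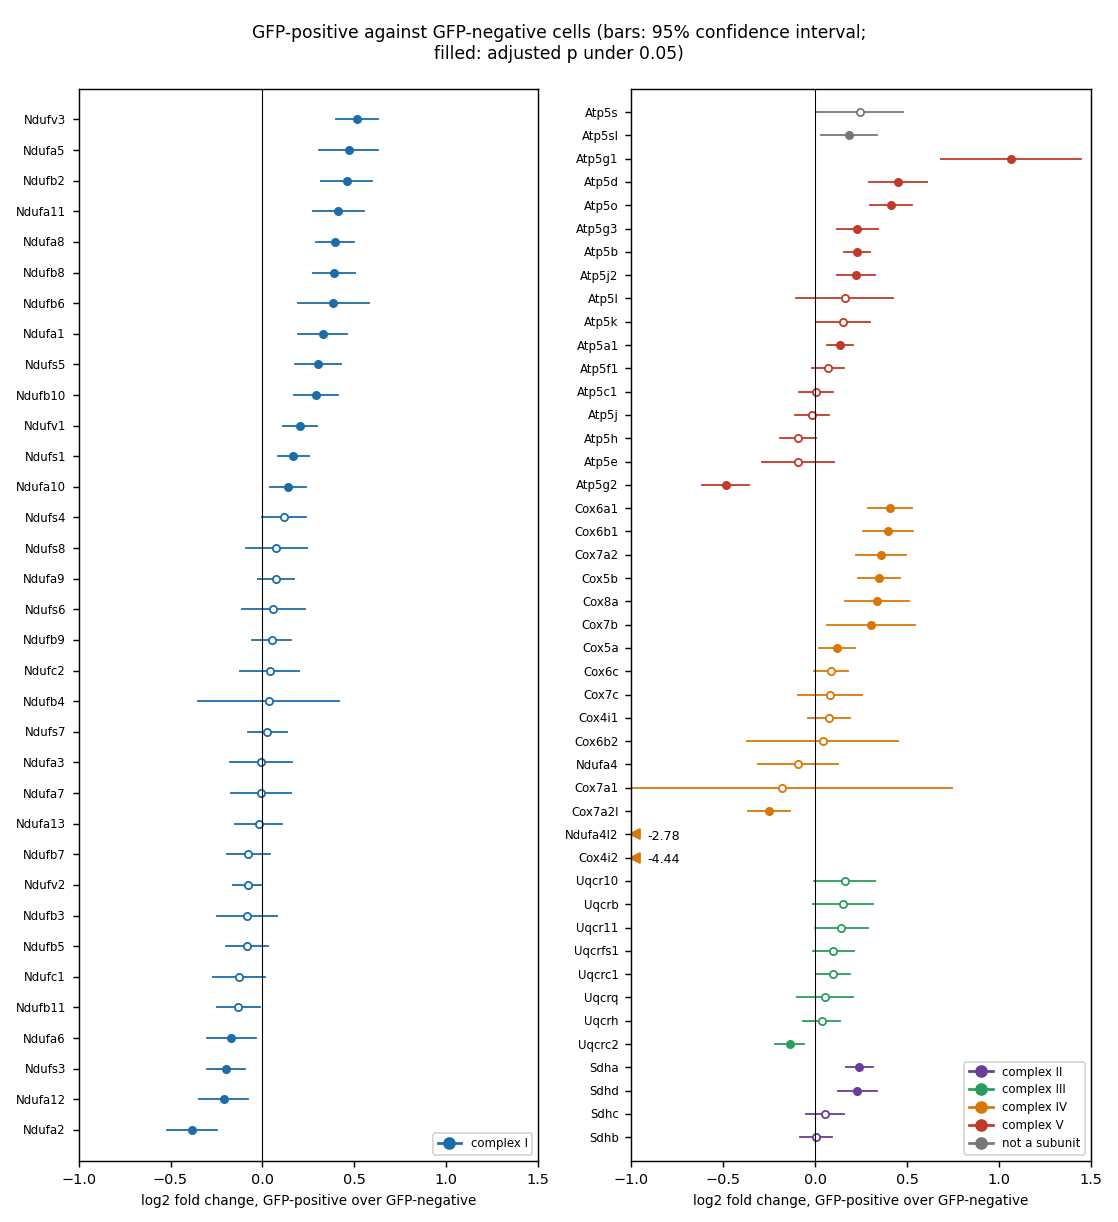
Log2 fold change of GFP-positive over GFP-negative cells (horizontal axis) for 79 of the 80 tested genes, complex I on the left and the others on the right, with bars for the 95% confidence interval and filled points for an adjusted p under 0.05. Atp5g1 lies farthest to the right at 1.06, while Ndufa4l2 and Cox4i2 lie beyond the left edge, marked by arrowheads; the bar of Cox7a1 is cut at the left edge.

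Complex I had 13 of 35 genes higher and 5 lower. Ndufv3, an accessory subunit gene of the NADH-oxidising arm, stood at 42.3 to 48.7 CPM (median 45.5) in GFP-positive libraries and at 32.67 and 31.03 CPM in the GFP-negative pair. All 10 positive libraries were above both negative ones (log2 fold change 0.51 ± 0.05 SE, edgeR adjusted p = 1.35e-06). The same separation held for the accessory subunit genes Ndufb2 (31.7 to 37.8 CPM, median 36.1, against 25.6 and 26.1), Ndufa8 (48.9 to 54.8, median 52.9, against 38.7 and 40.4) and Ndufb8 (87.0 to 99.3, median 91.1, against 71.5 and 67.9). Their log2 fold changes were 0.46, 0.39 and 0.39, with edgeR adjusted p-values of 2.54e-05, 7.14e-06 and 2.17e-05. Genes called lower, named after their values were seen, included Ndufa2 (-0.38), Ndufa12 (-0.21), Ndufs3 (-0.20) and Ndufa6 (-0.17). Their calls were not followed singly across other settings. For Ndufa6 (edgeR adjusted p = 0.0297), knockout GFP-positive library 1, at 33.8 CPM, was above the knockout GFP-negative library, at 32.2 CPM. Other genes share 25.4% of the 31-base sequences of Ndufs3 and 20.7% of those of Ndufa12. Ndufs3 encodes a core subunit of the arm that passes electrons on to ubiquinone.

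In complex II, 2 of 4 genes were higher and none was lower. Sdha stood at 177 to 188 CPM (median 183) in GFP-positive libraries and at 150 and 156 CPM in the GFP-negative pair, a log2 fold change of 0.24 ± 0.03 (SE, edgeR adjusted p = 2.88e-05). The membrane anchor gene Sdhd was at 61.6 to 69.7 CPM (median 64.5) against 52.2 and 57.4 CPM, at 0.23 ± 0.05 (edgeR adjusted p = 0.00107). Without the control GFP-negative library its adjusted p was 0.0635, and in knockout libraries alone 0.104. In complex III no gene was higher and 1 of 8 was lower. That gene was Uqcrc2, a core subunit, at 120 to 130 CPM (median 126) against 135 and 138 CPM, with a log2 fold change of -0.14 ± 0.04 (edgeR adjusted p = 0.00502). This call was lost without the knockout GFP-negative library (adjusted p = 0.105) and in control libraries alone (0.252), and 18.5% of its 31-base sequences also occur in Pdzd9, which overlaps it on the opposite strand.

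Complex IV had 7 of 16 tested genes higher and 3 lower, of which 2 were Cox4i2 and Ndufa4l2, whose direction the filter fixed. The higher genes included Cox6a1 and Cox6b1, the forms used outside muscle and testis, and Cox5b. Cox6a1 stood at 137 to 153 CPM (median 143) against 115 and 99.6 CPM in the GFP-negative pair (log2 fold change 0.41 ± 0.06 SE, edgeR adjusted p = 2.25e-05). Cox6b1 stood at 116 to 141 CPM (median 130) against 101 and 95.5 CPM (0.40 ± 0.06, edgeR adjusted p = 8.85e-05). All positive libraries of these genes, and of Cox5b (59.9 to 67.2 CPM against 52.6 and 47.2 CPM, 0.35 ± 0.05, edgeR adjusted p = 5.60e-05), were above both negative ones. Cox8a (0.34 ± 0.08) and Cox7b (0.30 ± 0.11) were also called higher, at edgeR adjusted p-values of 0.00239 and 0.0299. Without the knockout GFP-negative library both calls were lost (adjusted p = 0.0967 and 0.241), and without the control GFP-negative library that of Cox7b was (0.0843). For Cox7b, one GFP-positive library, at 51.8 CPM, was below the control GFP-negative one, at 52.5 CPM.

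The COX7A position is filled by paralogous proteins, and the 2 abundant genes differed in opposite directions. Cox7a2, the form found in most tissues, stood at 71.2 to 85.5 CPM (median 78.8) in GFP-positive libraries and at 62.3 and 60.3 CPM in the GFP-negative pair. Cox7a2l, known for its part in joining complexes III and IV into supercomplexes, stood at 84.9 to 99.5 CPM (median 97.0) against 109 and 115 CPM. The first was higher at 0.36 ± 0.06 (edgeR adjusted p = 0.000179) and the second lower at -0.25 ± 0.05 (edgeR adjusted p = 0.000856), with no overlap between GFP-positive and GFP-negative libraries for either. The call of Cox7a2l was lost in control libraries alone (adjusted p = 0.0972). As a share of the summed TPM of the COX7A genes, Cox7a2 made up 54.6% ± 0.399 in control and 53.8% ± 0.354 in knockout GFP-positive cells (SD, 5 libraries each), and 44.8% and 42.7% in the GFP-negative pair. Cox7a1, the muscle form, was 0.277% to 0.862% of the GFP-positive total.

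The lowest GFP-positive levels relative to GFP-negative cells were those of Cox4i2 and Ndufa4l2, which passed the filter on low counts only through the GFP-negative libraries. Cox4i2 had 29 estimated counts over the 2 GFP-negative libraries (0.505 and 0.507 CPM) and 5 over the 10 GFP-positive ones, of which 5 were at 0 and none was above 0.0419 CPM. The ratio was 26.5 (95% interval 10.1 to 87.7, counting error only). Ndufa4l2 had 70 and 47 counts, with 1.21 and 1.23 CPM in the GFP-negative libraries and 0.0834 to 0.326 CPM (median 0.190) in the GFP-positive ones, a ratio of 6.81 (4.64 to 10.1). Both negative libraries lay above all positive ones for both genes. As the filter fixed this direction, the ratios and the separation are descriptions and no test of a difference. Both transcripts are known as abundant in pericytes. Of the mesenchyme and pericyte markers, 7 of 9 tested were lower in GFP-positive cells, among them Kcnj8 (-3.35) and Abcc9 (-2.54). Rgs5, a pericyte gene and the most abundant marker of the list, did not pass the test (11.8 to 24.2 CPM in GFP-positive libraries against 17.9 and 16.2 CPM, log2 fold change 0.00166). The list had a summed level of 20.6 to 43.4 CPM in GFP-positive and 62.1 and 58.8 CPM in GFP-negative libraries and Lum at 0 in the knockout GFP-negative library. The part of such cells in these values was not tested. The abundant paralogues of Cox4i2 and Ndufa4l2 did not pass the test: Cox4i1 stood at 174 to 207 CPM (median 192) against 183 and 178 CPM (log2 fold change 0.08, edgeR adjusted p = 0.231, but 0.0361 with limma on log2(TPM + 1)), and Ndufa4 at 72.8 to 101 CPM (median 83.7) against 91.6 and 89.1 CPM. Cox4i1 made up at least 99.7% of the COX4 total in every library.

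Complex V had 7 of 15 tested genes higher and 1 lower. Atp5b stood at 1008 to 1078 CPM (median 1038) in GFP-positive libraries and at 896 and 870 CPM in the GFP-negative pair, a log2 fold change of 0.23 ± 0.03 (SE, edgeR adjusted p = 4.56e-05). Atp5o, which encodes the stalk subunit that confers oligomycin sensitivity, was at 155 to 177 CPM (median 168) against 128 and 122 CPM (0.41 ± 0.05, edgeR adjusted p = 1.22e-05). Atp5d, of the central stalk, was at 83.2 to 102 CPM (median 88.0) against 67.2 and 61.5 CPM (0.45 ± 0.07, edgeR adjusted p = 0.000106). All positive libraries of the 3 genes were above both negative ones. Atp5o shares 43.5% of its 31-base sequences with other genes, Gm15976 first, which overlaps it on the opposite strand.

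The largest contrast within complex V was between 3 genes for 1 protein. Atp5g1, Atp5g2 and Atp5g3 each encode subunit c, which forms the rotating ring of ATP synthase; the mature protein is known to be the same, and the genes differ in the targeting sequence that is cut off on import. Atp5g1 (chromosome 11, 96068852 to 96075670, GRCm38) stood at 53.0, 40.3, 51.1, 51.8 and 40.5 CPM in control and at 41.5, 40.8, 52.7, 61.2 and 42.7 CPM in knockout GFP-positive libraries 1 to 5, and at 24.8 and 20.4 CPM in the GFP-negative pair. Every GFP-positive library was above both GFP-negative ones, although Atp5g1 was also the most variable of the 77 genes within GFP-positive cells. Atp5g2 (chromosome 15, 102662864 to 102672352) stood at 39.9, 36.0, 39.9, 36.0 and 35.6 CPM in control and at 41.1, 38.4, 41.6, 36.6 and 38.7 CPM in knockout GFP-positive libraries, and at 52.9 and 53.8 CPM in GFP-negative ones. Here every GFP-positive library was below both GFP-negative ones. Atp5g3 (chromosome 2, 73908447 to 73911326) stood at 208, 204, 210, 188 and 206 CPM in control and at 187, 217, 205, 200 and 206 CPM in knockout GFP-positive libraries, and at 175 and 169 CPM in GFP-negative ones, again with no overlap.

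The log2 fold changes were 1.06 ± 0.17 for Atp5g1 (edgeR adjusted p = 0.000188), -0.49 ± 0.06 for Atp5g2 (5.97e-06) and 0.23 ± 0.05 for Atp5g3 (0.00159). Leaving out any 1 library kept them at 0.92 to 1.21, -0.51 to -0.46 and 0.21 to 0.25. Of the 31-base sequences of Atp5g2, 40.2% also occur in other genes, Gm10175 first, and of those of Atp5g1 14.1% do, while Atp5g3 shares none. As deposited TPM the 3 genes can be added: their sum was 876 ± 29.8 in control and 885 ± 32.95 in knockout GFP-positive cells (SD, 5 libraries each), and 782 and 757 in the GFP-negative pair. Of that sum Atp5g3 made up 73.5% ± 1.73 and 72.8% ± 1.76 in the 2 genotypes and 69.8% and 69.4% in GFP-negative libraries. Atp5g1 made up 11.1% ± 1.37 and 10.99% ± 1.604, against 6.09% and 5.14%. Atp5g2 made up 15.4% ± 0.413 and 16.2% ± 1.24, against 24.2% and 25.4%. The order of the 3 genes was thus Atp5g3, Atp5g2, Atp5g1 in both sorts, with the last pair closer together in GFP-positive cells.

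**Figure D5:**
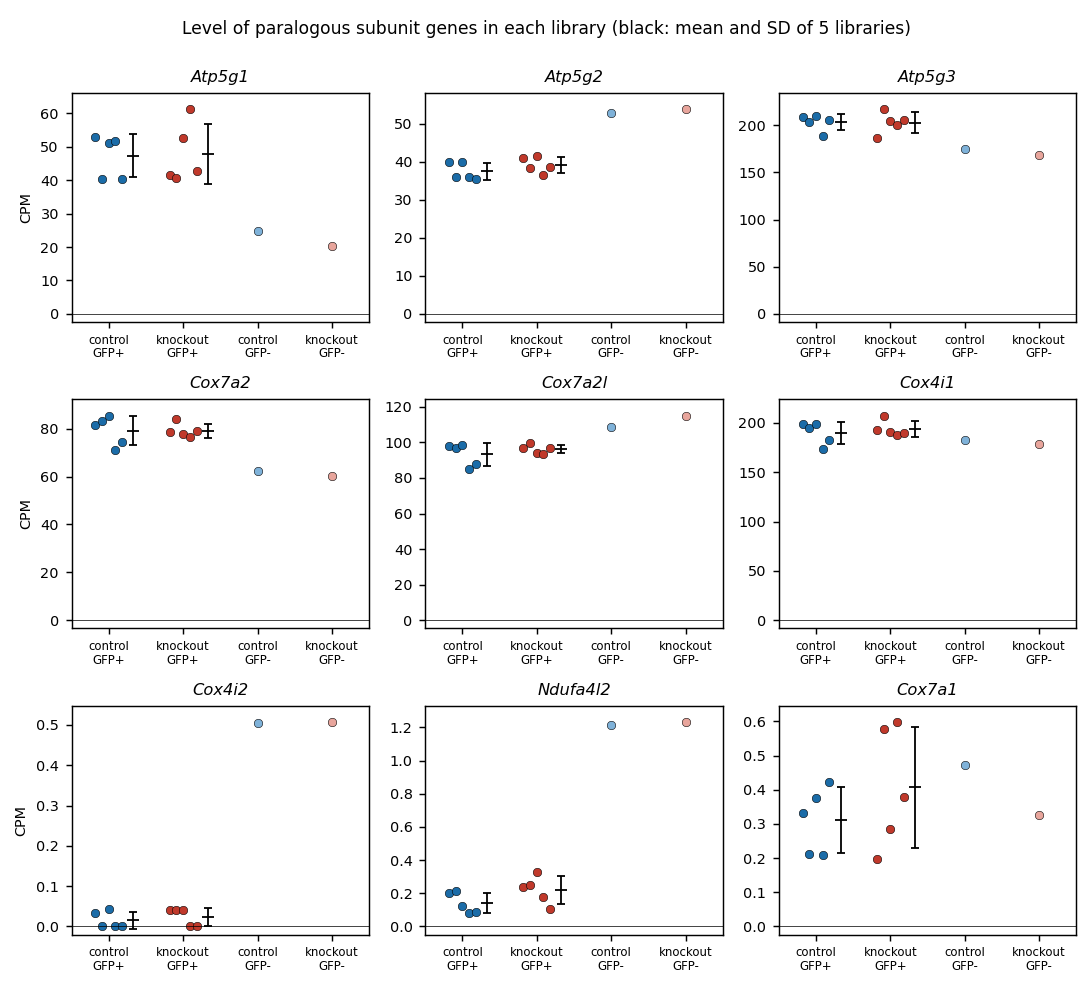
CPM (vertical axis, from 0) of 9 paralogous subunit genes in each library, with 1 point per library in 4 groups along the horizontal axis and the mean and SD of the 5 libraries of each GFP-positive group in black. Atp5g1 lies above and Atp5g2 below the GFP-negative libraries in all 10 GFP-positive ones, Cox7a2 and Cox7a2l part in the same way, and Cox4i2 and Ndufa4l2 are higher in GFP-negative cells.

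Sequence upstream of these genes is shown to set the 3 subunit c genes, which moved apart, beside Sdha, whose upstream region holds repeated matches to a motif of NRF1 (nuclear respiratory factor 1), a factor known for binding the promoters of many respiratory genes. The stretches come from RefSeq (GRCm38.p6), run 5′ to 3′ on the gene's strand (minus for all 4), and end at the most upstream annotated start, except that of Atp5g2, which is limited to the 30 bases around its match because GENCODE places an exon there. Capitals mark the motif GCGCANGCG on either strand, where N is any base.
Atp5g1, chr11:96075671-96075790: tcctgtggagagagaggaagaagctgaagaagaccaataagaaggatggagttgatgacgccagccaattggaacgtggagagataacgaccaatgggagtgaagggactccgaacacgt
Atp5g2, chr15:102671070-102671099: ggctccggccGCGCATGCGCagagccttcc
Atp5g3, chr2:73911327-73911446: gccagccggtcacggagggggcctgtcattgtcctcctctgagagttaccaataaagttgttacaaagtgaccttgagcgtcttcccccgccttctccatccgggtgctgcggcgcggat
Sdha, chr13:74350281-74350400: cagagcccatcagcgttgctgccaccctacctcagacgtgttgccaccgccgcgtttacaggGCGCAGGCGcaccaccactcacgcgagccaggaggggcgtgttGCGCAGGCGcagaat

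Atp5g1 held no match before its start, Atp5g2 a stretch that matches on both strands, and Sdha 3 matches, of which 1 lies within an annotated exon and is not shown. Atp5g3 held none before its start and 1 just after it. Promoter windows of 250 bases before and 50 after the start were listed for 68 of the 82 genes, in 74 windows. The NRF1 motif GCGCANGCG occurred in 28.4% of these windows, against 6.25% of all 32851 promoters in the table and 8.58% of those of protein-coding genes. The YY1 motif AANATGGCG occurred in 16.2% (2.38% and 3.12%) and the GABPA motif CCGGAAGT in 6.76% (3.89% and 5.15%), each searched on both strands, and no matches of different motifs overlapped. At least 1 of the 3 motifs was found in 47.3% of the windows, against 11.3% of all promoters. Of 33 NRF1 matches 20 began within 100 bases before the start, whereas 8 of 12 YY1 matches began after it. These are not all separate sites. A stretch that matches on both strands counted once per strand, and a site in overlapping windows of a gene counted once per window. The YY1 site of Atp5sl thus counted both after a start (+27) and before a start (-53).

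Genes with and without a match included called genes of both directions in the GFP comparison. Of the 20 genes with an NRF1 match, 10 were higher and 2 lower in GFP-positive cells, with a median log2 fold change of 0.19. Of the 34 tested genes with a promoter window and none of the motifs, 14 were higher and 2 lower, with a median of 0.09. The difference between these groups was not tested. A match is a run of letters, not a measured binding site.

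The regulators themselves were mostly lower in GFP-positive cells, with 10 of 13 called lower and 2 higher. For this list and those below, the background is 30.1% of all genes tested called higher and 31.8% called lower. Gabpa (-1.17) and Gabpb2 (-2.26), subunits of the GA-binding protein, were among the lower genes. The exons of Gabpa overlap those of Atp5j on the opposite strand, so part of its reads may come from there. Gabpb2 stood at 8.50 to 11.5 CPM in GFP-positive and at 45.7 and 46.8 CPM in the GFP-negative pair. The coactivator gene Ppargc1b was among the higher ones, at 3.95 to 6.20 CPM against 0.741 and 0.725 CPM (log2 fold change 2.77 ± 0.23 SE, edgeR adjusted p = 1.63e-07). Nrf1 itself was lower, at 27.3 to 38.7 CPM against 61.4 and 58.3 CPM (-0.94, edgeR adjusted p = 5.91e-07), and is named here because its motif was searched.

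The other parts of the machinery differed in both directions. Of 13 complex I assembly factor genes 6 were higher and 2 lower, with Tmem126b at 0.74 and Ndufaf5 at 0.34. Of 9 genes for assembly of complexes II and III 3 were higher and 3 lower, with Ttc19 at 0.58 and Sdhaf1 at -0.70, and of 20 for complex IV 6 were higher and 6 lower, with Cox10 at 0.62 and Cox19 at -0.28. Among the assembly and inhibitor genes of ATP synthase, 2 of 4 were higher and 1 lower. Atpaf1, which helps to assemble the catalytic head, stood at 21.9 to 28.3 CPM against 14.7 and 13.5 CPM (0.84), and Atpif1, the inhibitor of ATP hydrolysis, was at 0.46. Of the 4 subunit genes outside the naming rule, 1 was higher, 2010107E04Rik (0.31), a small subunit of ATP synthase. Of the 11 mitochondrially encoded subunit genes none was higher and 1 was lower, mt-Nd4 (-0.69, edgeR adjusted p = 0.0432).

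Carriers and neighbouring pathways also held genes that differed in both directions. The adenine nucleotide translocators, which exchange ADP and ATP across the inner membrane, parted: Slc25a4 was at 493 to 581 CPM against 348 and 347 CPM (0.62) and Slc25a5 at 151 to 164 CPM against 319 and 331 CPM (-1.06, edgeR adjusted p = 3.98e-11). Both genes' GFP-positive libraries lay clear of both GFP-negative ones. Cycs, which encodes cytochrome c, was higher at 0.35. In the TCA cycle list 9 of 16 genes were higher and 2 lower, with the pyruvate dehydrogenase gene Pdha1 at 0.75, the citrate synthase gene Cs at 0.40 and Suclg2, a subunit of succinyl-CoA ligase, at -2.04. In the glycolysis list 9 of 17 were higher and 3 lower, with the glucose phosphate isomerase gene Gpi1 at 1.92, the hexokinase gene Hk1 at 1.57 and the lactate dehydrogenase gene Ldhb at -0.62. Of 83 cytosolic ribosomal protein genes 54 were lower and 5 higher.

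Whether the knockout effect differed between the sorts was asked with an interaction term. None of 80 genes was called (edgeR's quasi-likelihood test, adjusted p = 1.00 for each), against 0.0253% of all genes tested (0.0101% higher and 0.0152% lower), and 2 had an unadjusted p under 0.05, also with DESeq2 and limma-voom, which called 0 as well. They were Ndufa5, a complex I accessory subunit gene, and Cox6a1. Ndufa5 had 27.5 and 22.6 CPM in the GFP-negative pair and 31.8 to 37.3 CPM over the GFP-positive libraries, with a difference of log2 fold changes of -0.32 ± 0.12 (SE). Cox6a1 gave -0.24 ± 0.09 and Cox5b, with the next smallest p, -0.19 ± 0.09. Estimates lay below 0 for 60 of the 80 genes (median -0.05), against 9578 of all 19763 genes tested (median 0.00614). This shift was not tested. Each GFP-negative group is a single library, assumed in this fit to vary like the GFP-positive ones. The median half-width of the intervals was 0.253, against 0.103 in the knockout comparison.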

How the data were processed

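RNA was measured in 12 libraries of sorted cells, with TruSeq v2 libraries that do not keep strand, read as 50-base single ends, per the labels' protocols. The estimated counts per gene symbol were deposited by the authors, with kallisto and mm10 named in the submitters' processing notes (no version stated). The deposited TPM values, made by the authors from the same libraries, were used to compare levels between genes, for sums and shares of paralogues, and in the limma alternatives. Totals and floors cover counting error only.

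Estimated counts were rounded, filtered (filterByExpr over the 4 groups), scaled by TMM and tested with edgeR 4.0.16 in R 4.3.3 (robust quasi-likelihood test, Benjamini-Hochberg adjustment over all genes tested, threshold 0.05). CPM values carry TMM scaling over 12 libraries. The knockout comparison used the 10 GFP-positive libraries, the GFP comparison all 12 with genotype as a covariate, and the interaction 4 group means. Each GFP-negative group is 1 library, and its spread is taken from the other groups. Ratios of low counts have exact 95% intervals. Alternatives were DESeq2 1.42.0, limma 3.58.1 (voom, or log2 of TPM plus 1 or 0.1), library-size scaling, no filter, a replicate block, 1 genotype at a time and each library left out. The fits were tested on simulated data.

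Same-numbered control and knockout libraries deviated together (correlations of 0.179 to 0.381 over genes, against at most 0.104 for different numbers), so libraries of the same number share some variation. The main knockout test, its intervals and the permutation tests did not use this pairing by number.

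Members and lists were chosen with earlier results of these data known. The genes named were, in the knockout comparison, called members, the 8 smallest p-values and members near Arhgap35; in the GFP comparison, per complex up to 4 called with the smallest p-values, and the 3 highest and 3 lowest fold changes; in the interaction, up to 5 called or the 3 smallest p-values; also paralogue sets, the highest and lowest TPM of each complex, and up to 3 called genes per pathway list. Others (Ndufa2, Ndufa12, Ndufa6, Ndufs3, Nrf1) were chosen after their values were seen. Cox7a2l, Atp5s and Atp5sl stood in pathway lists by mistake and were dropped from those, being members. Positions are from GENCODE M21 (GRCm38) and promoters from RefSeq. A gene of the set is counted but not reported here by name or drawn in the fold change plots. The labels do not state the deleted part of Arhgap35.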

Additional observations from a re-analysis of the deposited data

Results flagged for a closer look

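Within groups of 5 libraries, 1 library stood far from the others in 7 of 90 groups tested (Dixon's test, of which chance flags about 1 in 20). Control library 4 was low for Atp5g3 (188.1 CPM, others 203.9 to 210.0) and Ndufa5 (31.81 CPM, others 34.5 to 35.57). Knockout library 2 was high for Cox4i1 (207.4 CPM, others 187.6 to 192.4) and Ndufa4 (101.0 CPM, others 79.85 to 85.51). Knockout library 4 was low for Ndufa8 (48.93 CPM, others 53.23 to 54.82). Atp5l2 was high in control library 3 (0.2094 CPM, others at 0) and in knockout library 5 (0.1373 CPM, others at most 0.03946).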

How the results depend on the processing

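No setting called a member in the knockout comparison or the interaction. Members called lower in the GFP comparison numbered 10, against 5 with limma on log2(TPM + 1), 5 on log2(TPM + 0.1) and 6 in knockout libraries alone; those called higher stayed between 22 and 42. The median there was 0.0314 with library size alone. Atp5sl in the knockout comparison was -0.000755 with library size alone, -0.000986 with no filter, -0.0195, -0.0201 and -0.0195 with the 3 TPM settings, and -0.0331 to 0.0359 with 1 library left out. With 1 library left out, Cox6b1 ran from -0.00704 to 0.0629, Cox6b2 from -0.146 to 0.00735 and Ndufa3 from -0.0549 to 0.0201. In the GFP comparison Cox6b2 was -0.0121 with library size alone, -0.0613 in control libraries alone, and -0.0792 to 0.165 with 1 library left out; Cox7a1 was 0.314 in knockout libraries alone and -0.603 to 0.310 with 1 left out. With the replicate block 29 members were higher and 8 lower in GFP-positive cells, and Cox6b2 was -0.0715. No call changed there among the genes named by rule in the GFP comparison. Ndufa2, Ndufa12, Ndufa6 and Ndufs3, chosen after their values were seen, were not followed singly. Calls among them may have been lost. These causes were not tested. Depth limits Cox4i2, Ndufa4l2, Cox7a1, Cox7b2 and Atp5l2.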
